A study of Saccharomyces cerevisiae with 8 samples.

Results

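The 10 ADE genes of de novo purine synthesis were followed across 8 arrays, each hybridised with RNA in a Cy3 and a Cy5 channel, of the budding yeast Saccharomyces cerevisiae. The members are ADE4, ADE5,7, ADE8, ADE6, ADE2, ADE1, ADE13, ADE16, ADE17 and ADE12. They were chosen by name, and each was found on the array through the systematic name of its open reading frame, such as YGL234W for ADE5,7. All 10 passed the filter on dim probes and stand among 6465 genes tested.

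The study compared 3 strains. The double mutant carries pdr5-∆1::hisG and yor1-1::hisG, disruptions of 2 genes for drug-exporting ABC transporters. The triple mutant further carries pdr1::kanMX4, a disruption of the gene for a transcription factor of drug resistance, and wild type carries none of these. All are of the SEY6210 background, and the label of wild type gives the mating type α with the alleles leu2-3,-112, ura3-52 and lys2-801 together with trp1-∆901, his3-∆200 and suc2-∆9, and GAL. None of the alleles listed is in an ADE gene. The cells grew in the rich medium YPD, and 4 arrays compared the double mutant with wild type while 4 others compared the double mutant with the triple mutant. RNA of the double mutant was labelled with the red dye Cy5 on arrays 1 and 3 and with the green dye Cy3 on arrays 2 and 4, in both comparisons. Separate cultures are not stated for the replicate arrays, and the p-values then measure only how far these arrays scatter, which may be technical.

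De novo purine synthesis builds the purine ring step by step on phosphoribosyl pyrophosphate (PRPP) until inosine monophosphate (IMP) is reached, from which the adenine and guanine nucleotides are made. In yeast the transcription factor Bas1, together with Pho2, activates most ADE genes when adenine is short, and late intermediates of the pathway strengthen the contact of both factors. Glycine and one-carbon units feed the pathway, histidine synthesis returns one of its intermediates, and the amino acid starvation factor Gcn4 acts on some of the same genes.

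The median signal of an array, over its probes, was between 401.7 and 1300.3 in Cy5 and between 116.9 and 1041.8 in Cy3, and 0 probes were saturated. Array 4 against wild type stood apart: the SD of the log2 ratios over all genes was 0.458 there, against 0.234 to 0.279 on arrays 1 to 3 and 0.183 to 0.246 on the arrays of the other comparison. Results that rest on it are given with and without it. PDR5 was lower in the double mutant than in wild type on all 4 arrays, with log2 ratios of -1.14, -1.47, -1.62 and -1.62, so array 4 was no lower than array 3. Its signal in the double mutant was still high, at the percentiles 84.0 to 86.1 of its channel and well above background in 8 of 8 measurements, against 91.9 to 93.7 in wild type. YOR1 was higher in the double mutant than in wild type, by 1.94 on the log2 scale, although the label gives a disruption of it. Where the probes of PDR5 and YOR1 lie relative to the disrupted stretches is not known here, so neither gene checks whether the disruption is present. PDR1 went against the labels of the other comparison: its 2 probes on 4 arrays were well above background in 0 of 8 measurements of the channel labelled double mutant and in 8 of 8 of the channel labelled triple mutant. YOR1 also differed there, with a fitted ratio of -1.67 (limma adjusted p = 1.8e-05). Its signal percentiles ran from 60.5 to 70.2 under the label double mutant and from 85.0 to 89.5 under the label triple mutant, beside 87.5 to 90.4 in the double mutant of the comparison with wild type. Ratios against the triple mutant set the channel labelled double mutant against the one labelled triple mutant, and if its labels were exchanged every sign would turn.

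In the comparison of the double mutant with wild type, ADE5,7 alone among the ADE genes passed the test, and its change was small. Of the 10 genes, 1 was called lower and 0 were called higher, by limma with a Benjamini-Hochberg adjusted p below 0.05 over all 6465 genes. Among all genes 8.21% were called, 4.97% lower and 3.25% higher. Without array 4, 0 of the 10 were called, while 12.8% of all genes were, 6.9% lower and 5.86% higher. At an unadjusted p below 0.05 the count was 5 of 10 with all arrays, where 24.6% of all genes passed, and 3 of 10 without array 4, where 28.4% did. The median of the 10 fitted log2 ratios of the double mutant over wild type was -0.22, and -0.08 without array 4, beside a median of -0.01 over all genes.

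The gene called was ADE5,7, whose product is a bifunctional enzyme of the second and the fifth step (glycinamide ribotide synthetase and aminoimidazole ribotide synthetase). Its log2 ratios were -0.17, -0.21, -0.07 and -0.36 on arrays 1 to 4, all below 0. The fitted ratio was -0.20 with a 95% interval from -0.31 to -0.09 (limma adjusted p = 0.0403), or 1.15-fold lower in the double mutant. Its mean over the arrays was -0.20 ± 0.12 (SD, n = 4). The call rests on the fit used: without array 4 the ratio was -0.17 (limma adjusted p = 0.0694), and the second probe of the gene gave -0.17 (limma adjusted p = 0.0909). The call was also lost when any other single array was left out, of either comparison.

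**Figure D1:**
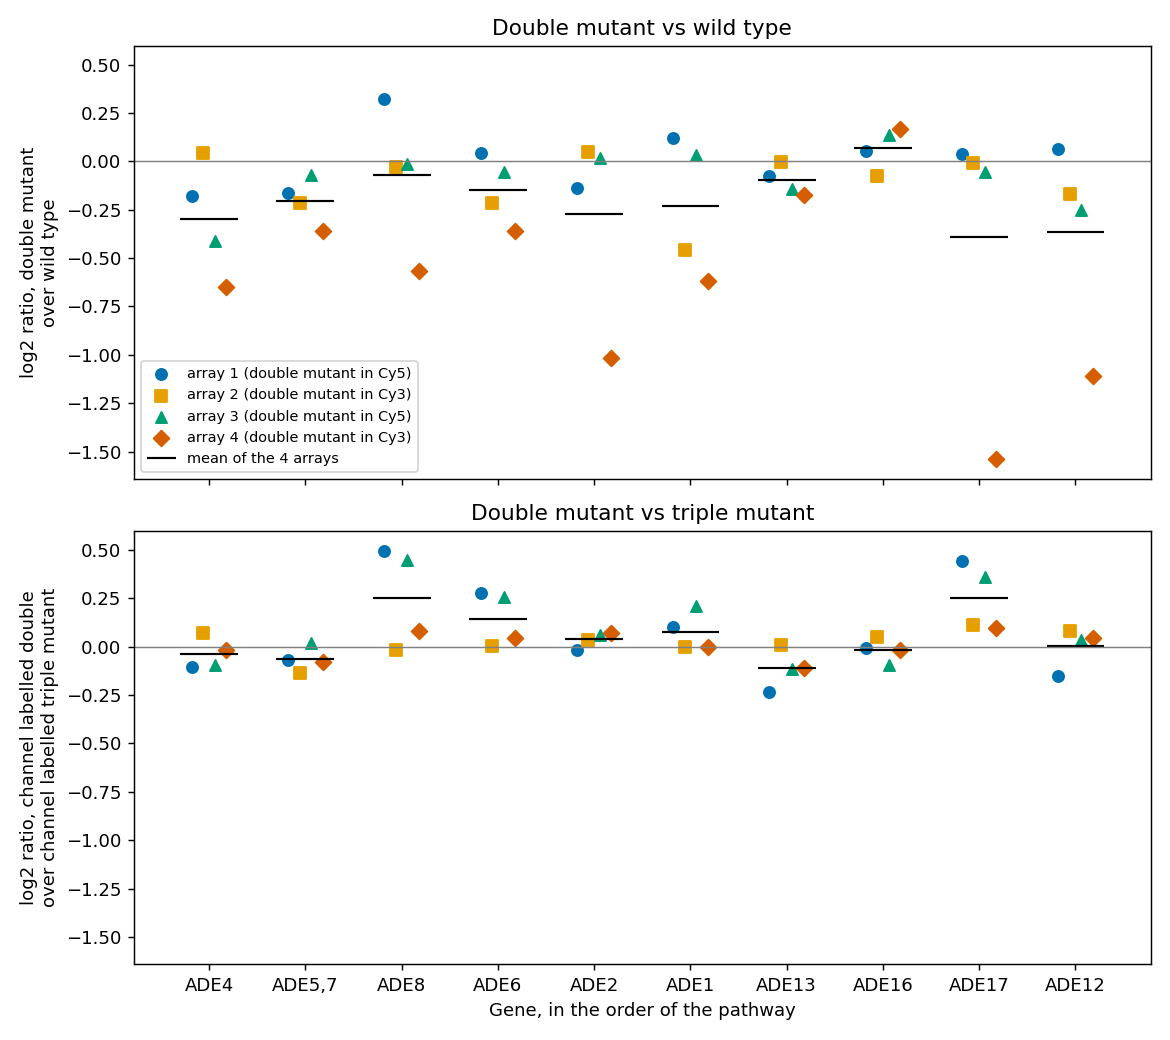
Log2 ratios of the 10 ADE genes on each array, in the order of the pathway. In the upper panel wild type is the denominator for the double mutant; the lower panel sets the channel labelled double mutant over that labelled triple mutant, with 1 point per array and a line at the mean of 4 arrays. Array 4 against wild type lies lowest for 9 of 10 genes, and ADE16 is the exception. The share of all genes lowest on that array was not counted.

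Of the other genes of the early steps, ADE4 encodes the amidotransferase that commits PRPP to the pathway. It had log2 ratios of -0.18, 0.04, -0.41 and -0.65 on arrays 1 to 4 of the double mutant against wild type, and a fitted ratio of -0.30 (limma adjusted p = 0.111). Arrays 1, 3 and 4 were below 0 and array 2 was just above it. ADE8, the glycinamide ribotide transformylase, had 0.32, -0.03, -0.01 and -0.57, so its highest and lowest arrays lay on opposite sides of 0 (fitted ratio -0.07, limma adjusted p = 0.668). ADE6, which encodes formylglycinamidine ribotide synthetase, had 0.04, -0.22, -0.06 and -0.36, and its fitted ratio was -0.15 (limma adjusted p = 0.089). None of these 3 genes passed the test.

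ADE2 and ADE1 encode the next enzymes, aminoimidazole ribotide carboxylase and the synthetase of the succinyl intermediate SAICAR; loss of either turns yeast colonies red. ADE2 had log2 ratios of -0.14, 0.05, 0.02 and -1.01 on arrays 1 to 4, so arrays 1 to 3 lay around 0 and array 4 alone was low. Without array 4 its fitted ratio was -0.01, with an interval from -0.14 to 0.11. ADE1 had 0.12, -0.46, 0.03 and -0.62, with both arrays of the double mutant in Cy3 low and both arrays of the double mutant in Cy5 above 0. Its fitted ratio was -0.23 (limma adjusted p = 0.0987).

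ADE13 encodes adenylosuccinate lyase, which acts both before IMP and on the branch to adenosine monophosphate. It was below 0 on all 4 arrays, at -0.07, -0.00195, -0.14 and -0.17, with a fitted ratio of -0.10 (limma adjusted p = 0.286). Together with ADE5,7 it makes 2 of 10 ADE genes below 0 on all 4 arrays, against 13.9% of the genes measured on all 4. The second probe of ADE13 gave 0.02 on array 1, so the place of ADE13 in this count rests on the probe used.

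ADE16 and ADE17 are isozymes of the enzyme that makes IMP, and they had opposite signs on array 4. ADE17 had log2 ratios of 0.04, -0.01, -0.06 and -1.54 on arrays 1 to 4, and ADE16 had 0.06, -0.08, 0.14 and 0.17. Arrays 1 to 3 held ADE17 within 0.0958 of each other, the narrowest range of the 10 genes, and array 4 lay far below them. The mean of ADE17 was -0.39 ± 0.77 (SD, n = 4; limma adjusted p = 0.281), and without array 4 the fitted ratio was -0.04 with an interval from -0.18 to 0.10. ADE16 had a fitted ratio of 0.07 (limma adjusted p = 0.473). The difference between the isozymes was not tested.

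ADE12, the adenylosuccinate synthetase of the branch from IMP to adenosine monophosphate, had log2 ratios of 0.06, -0.17, -0.25 and -1.11. Array 4 was again the lowest. Its fitted ratio was -0.37 (limma adjusted p = 0.192), and -0.11 without array 4 (limma adjusted p = 0.373).

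**Figure D2:**
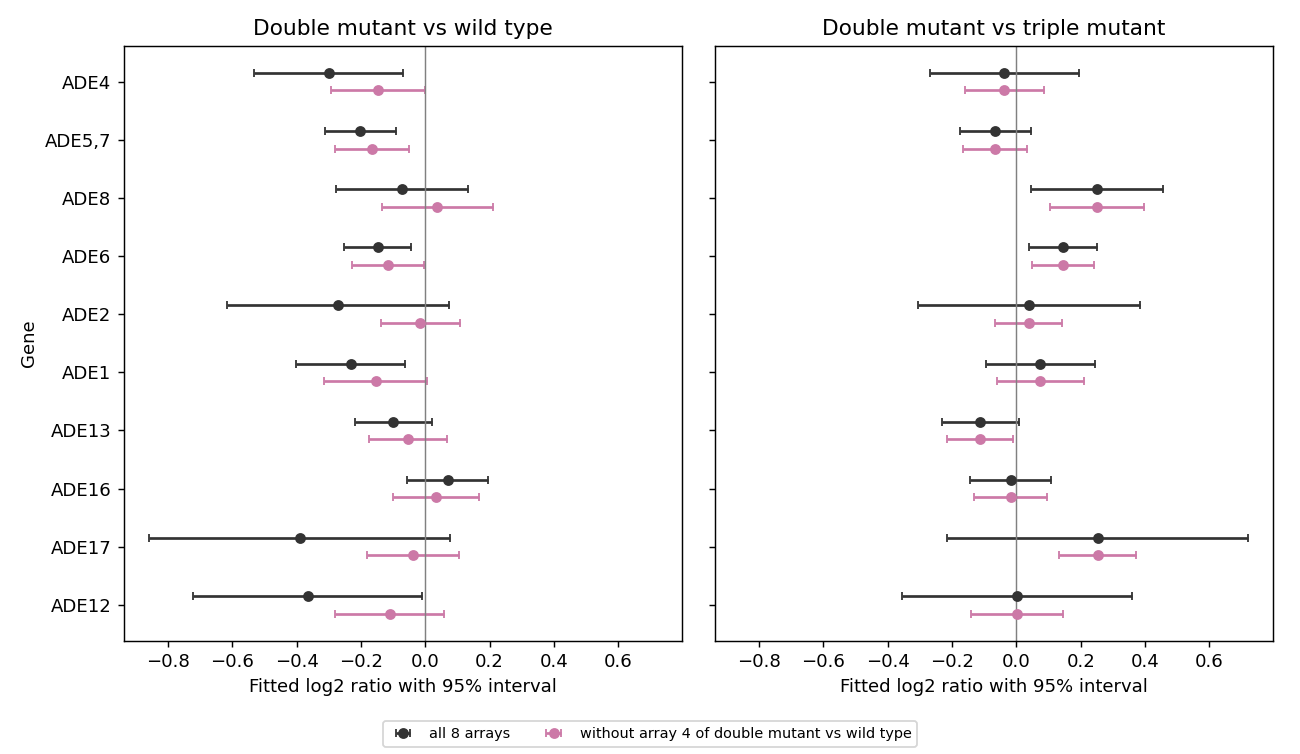
Fitted log2 ratios of the 10 ADE genes with 95% intervals, with all 8 arrays and without array 4 of the comparison with wild type. Against wild type the intervals of ADE17, ADE12 and ADE2 are wide with array 4 and narrow around values of -0.04, -0.11 and -0.01 without it.

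The ADE genes as a group were low on array 4 alone. Their median log2 ratio was 0.04, -0.05, -0.06 and -0.59 on arrays 1 to 4, and the 30 values of arrays 1 to 3 lay between -0.46 and 0.32. On array 4, 9 of 10 were below 0, as were 52% of all genes there, and 6 of 10 were at -0.5 or lower, as were 10.4% of all genes. ADE17 was 2.91-fold lower in the double mutant on that array, ADE12 2.15-fold and ADE2 2.02-fold. Among all genes of array 4, ordered from the lowest ratio, ADE17 stood at the percentile 1.61, ADE12 at 3.1 and ADE2 at 3.58, while ADE16 stood at 79.6. The dyes of array 4 are those of array 2, on which ADE17 and ADE2 were close to 0. From array 2 to array 4 the log2 ratio changed by -1.53 in ADE17, -1.06 in ADE2 and -0.94 in ADE12. It changed by -0.69 in ADE4 and -0.54 in ADE8. The change was smaller in ADE13 (-0.17), ADE1 (-0.16), ADE5,7 and ADE6 (both -0.14), and ADE16 rose by 0.25. ADE1, ADE5,7 and ADE6 were already at -0.46, -0.21 and -0.22 on array 2. The part of the dye in the values of array 4 was not tested.

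The signals of single channels are given for ADE17, ADE12 and ADE2, the ADE genes with the lowest ratios on array 4. A probe's signal is given here as its percentile among all probes of the same channel. ADE17 was at 79.2, 80.1, 79.5 and 77.0 in the double mutant on arrays 1 to 4, against 78.5, 80.4, 80.0 and 89.6 in wild type. For ADE17 the wild-type channel of array 4 was high, and the double mutant channel lay slightly under the other arrays. ADE12 was at 80.2, 82.1, 79.6 and 74.6 in the double mutant, against 79.2, 84.2, 82.3 and 86.1 in wild type. ADE2 was at 73.4, 75.2, 75.5 and 66.4 in the double mutant, against 75.6, 74.5, 74.9 and 81.1 in wild type. For ADE12 and ADE2 both channels of array 4 moved apart, the double mutant below its range on arrays 1 to 3 and wild type above its own. The ADE genes as a group differed from this. Their median percentile in wild type was 83.4 on array 4, within 81.5 to 84.4 on arrays 1 to 3. In the double mutant their median was 79.3 on array 4, under 80.3 to 83.1 on arrays 1 to 3.

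**Figure D3:**
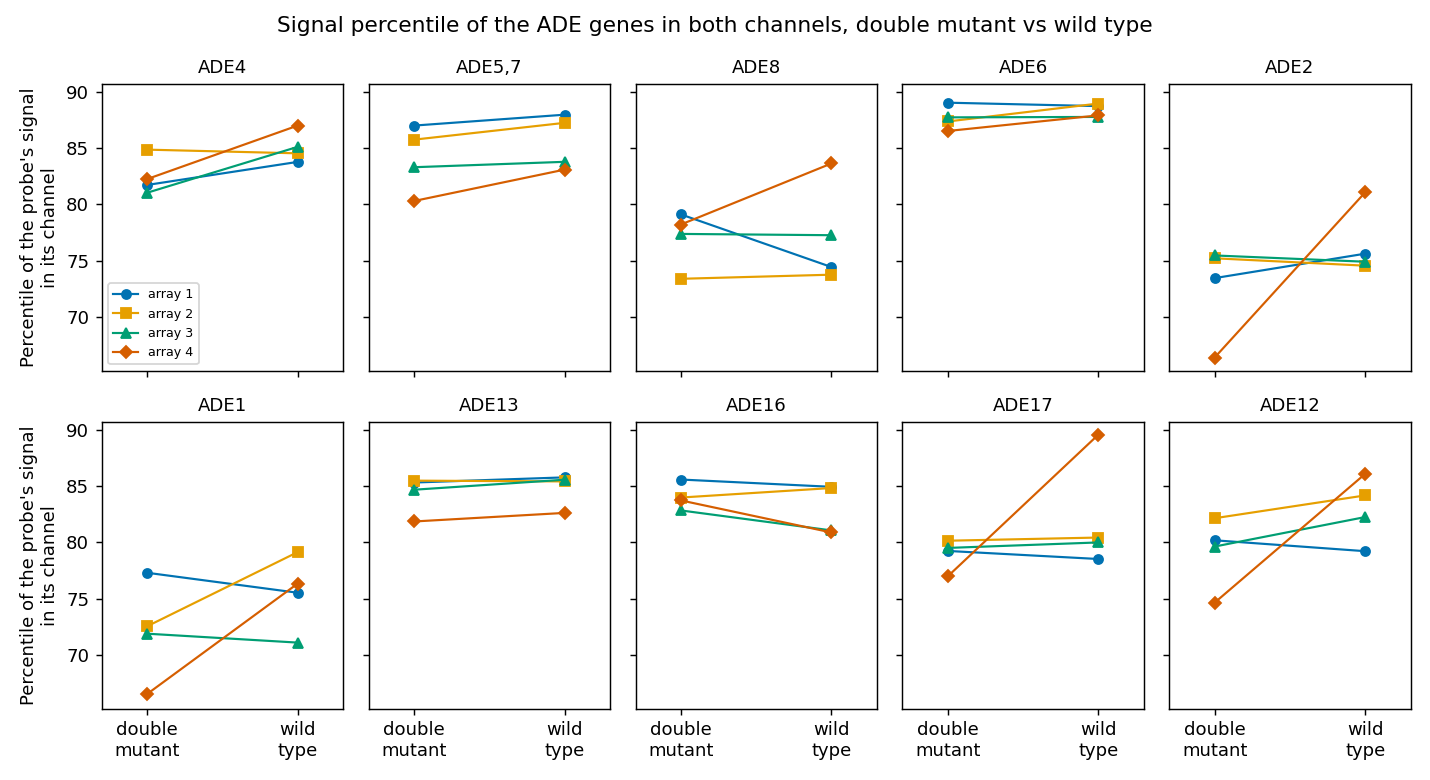
Signal percentile of each ADE gene in the double mutant channel and in the wild-type channel, with 1 line per array. The lines of array 4 climb towards wild type for ADE17, ADE12 and ADE2, and ADE16 has 83.7 in the double mutant and 80.9 in wild type.

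On array 4 against wild type the 2 probes of each ADE gene had the same sign, above 0 for ADE16 and below 0 for the others. The probes of ADE6 lay farthest apart on that array, at -0.36 and -0.20. Every ADE probe was well above background in 16 of 16 channel measurements. Over 79 pairs of probes the median absolute difference of the log2 ratios was 0.0342 and the largest was 0.289. ADE17 had -1.52 and -1.54 on array 4 with its 2 probes. The largest gap belonged to ADE2 on array 2 of the other comparison, with 0.04 and -0.25; ADE2 was dim there, at the percentile 14.2 in the channel labelled double mutant and 13.3 in the channel labelled triple mutant.

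**Figure D4:**
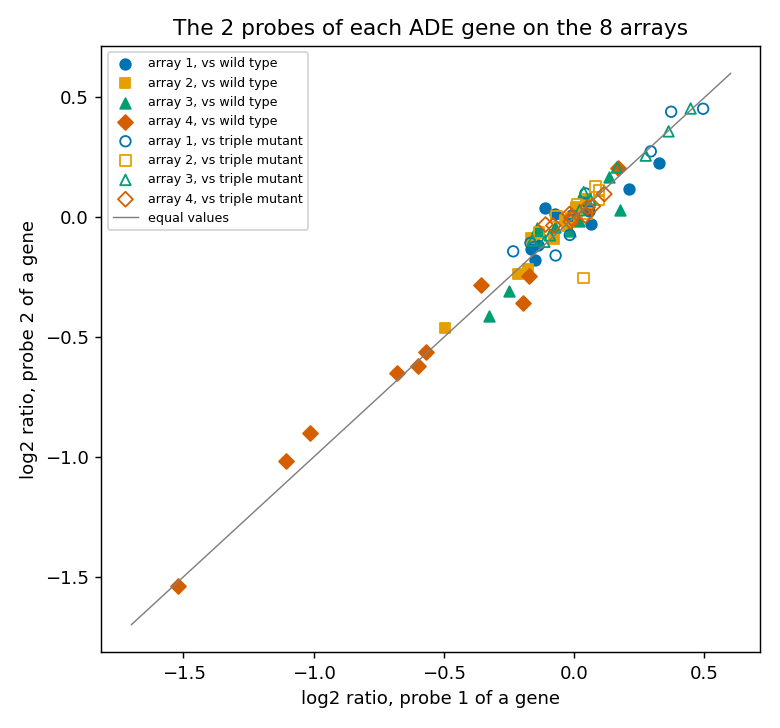
Log2 ratio of each ADE gene by its first probe and by its second probe, with 1 point per gene and array. The points lie along the line of equal values, down to -1.52 and -1.54 for ADE17 on array 4 against wild type.

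In the comparison with the triple mutant, 0 of 10 ADE genes were called with all 8 arrays, where 1.59% of all genes were (0.541% lower and 1.05% higher), and 2 of 10 had an unadjusted p below 0.05, as did 14.6% of all genes. The median of the fitted log2 ratios was 0.02. On the 4 arrays the median of the 10 genes was -0.01, 0.02, 0.05 and 0.02, so no array stood apart. Above 0 on all 4 arrays were 2 of 10 genes, ADE6 and ADE17, against 13.1% of the genes measured on all 4, and 0 of 10 were below 0 on all 4, against 12.4%. The other probe of ADE6 gave -0.07 on array 2, so its place in this count rests on the probe used.

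The largest fitted ratios were those of ADE17 and ADE8. ADE17 had log2 ratios of 0.44, 0.11, 0.36 and 0.10 on arrays 1 to 4, all above 0, and a fitted ratio of 0.25 with an interval from -0.21 to 0.72 (limma adjusted p = 0.652). The fit takes 1 spread per gene from both comparisons, so array 4 of the comparison with wild type widens that interval. Without it the ratio was the same, the interval ran from 0.13 to 0.37 and ADE17 was called (limma adjusted p = 0.0256), where 7.32% of all genes were called (1.9% lower and 5.41% higher). ADE8 had 0.49, -0.02, 0.45 and 0.08, a fitted ratio of 0.25 with an interval from 0.04 to 0.46 (limma adjusted p = 0.246). ADE6 had 0.28, 0.0035, 0.26 and 0.04, and a fitted ratio of 0.14 (limma adjusted p = 0.185).

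These ratios differed with the dye. In ADE8 the mean was 0.47 on the arrays with the channel labelled double mutant in Cy5 and 0.03 on those with it in Cy3. The corresponding means were 0.40 and 0.10 in ADE17, and 0.27 and 0.02 in ADE6. The dye term common to all arrays was called in 0 of 10 ADE genes and in 0.0309% of all genes; in ADE8 it was 0.22 (limma adjusted p = 0.179). Beyond this term and the alternative fits named further below, the part of the dye in these ratios was not tested. If the labels are taken as exchanged, these genes would be higher in the triple mutant.

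The other members had smaller ratios against the triple mutant. ADE13 had -0.23, 0.01, -0.11 and -0.11, with a fitted ratio of -0.11 (limma adjusted p = 0.369). The 4 arrays of ADE16 lay between -0.09 and 0.05, those of ADE4 between -0.11 and 0.07, and those of ADE12 between -0.15 and 0.08. Those of ADE2 lay between -0.02 and 0.07, those of ADE5,7 between -0.13 and 0.02, and those of ADE1 between -0.00431 and 0.21. The other probe of ADE2 gave -0.25 on array 2, where the gene was dim, so the narrow range of ADE2 rests on the probe used. All of these ranges include 0.

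Of the regulators, GCN4 was lower in the double mutant than in wild type and the genes of the direct ADE activators were not called. GCN4 had log2 ratios of -0.39, -0.40, -0.17 and -0.70 on arrays 1 to 4, all below 0, and fell by 0.41 on the log2 scale (1.33-fold lower, limma adjusted p = 0.0126). Without array 4 it was at -0.33 (limma adjusted p = 0.0106), and the call was lost without array 1 (-0.40). It was also lost with the 4 arrays of this comparison alone (limma adjusted p = 0.141). BAS1 had 0.16, -0.24, 0.07 and -0.71 (fitted ratio -0.18, limma adjusted p = 0.249), and -0.05 without array 4. BAS1 lay lowest on array 4. So did 9 of 10 ADE genes, but the share of all genes lowest there was not counted. The SD of the log2 ratios over all genes was also largest on that array, at 0.458. PHO2 had a fitted ratio of -0.01 (limma adjusted p = 0.947). Against the triple mutant 0 of the 3 regulators were called.

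Pathways next to the ADE genes split between those that were low on array 4 and those that were not. Against wild type 4.97% of all genes were called lower with all arrays, and 6.9% without array 4. The histidine synthesis genes, of which 6 were measured and HIS3 was not, had medians of -0.24, -0.49, -0.22 and -1.29 on arrays 1 to 4, and 2 of 6 were called lower, or 4 of 6 without array 4. HIS1, the first enzyme, fell by 0.83 on the log2 scale (-0.65, -0.81, -0.45 and -1.43; limma adjusted p = 0.00272). HIS7, whose enzyme releases the purine intermediate AICAR, fell by 0.56 (limma adjusted p = 0.0454), and was at -0.35 without array 4. Its call was lost when array 1, 2 or 3 against wild type or any array of the other comparison was left out. The one-carbon and glycine genes had medians of -0.12, -0.23, -0.04 and -0.73, and 3 of 14 were called lower, or 4 of 14 without array 4. GCV2 of the glycine cleavage complex had -0.58, -0.81, -0.64 and -2.29 (fitted ratio -1.08, limma adjusted p = 0.0236), and -0.70 without array 4. SHM2, the cytosolic serine hydroxymethyltransferase, fell by 0.51 (limma adjusted p = 0.0226), and GCV3 fell by 0.62 (limma adjusted p = 0.0319). The call of GCV2 was lost without array 1 or 3 against wild type, that of SHM2 without array 2 or 3, and that of GCV3 without array 1 or 3 of either comparison. With the 4 arrays of the comparison with wild type alone, none of the genes named here was called, HIS1 included (limma adjusted p = 0.0852).

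The list of 30 amino acid synthesis genes under Gcn4 had medians of -0.23, -0.34, -0.15 and -1.60 on arrays 1 to 4 and 9 of 30 called lower, against -0.59 for the ADE genes on array 4. Among them, ARG1 of arginine synthesis had a fitted ratio of -2.40 (limma adjusted p = 0.00627), and ARG3 of the same pathway had -1.72 (limma adjusted p = 0.0224). Without array 4 they were at -1.79 and -1.10, and 15 of 30 genes of the list were called lower. Of all genes, 4.97% were called lower with all arrays and 6.9% without array 4. The call of ARG3 was lost without array 1 or 3 against wild type. With the 4 arrays of this comparison alone, ARG1 and ARG3 were not called (limma adjusted p = 0.103 and 0.154). These lists, unlike the ADE genes, were below 0 at the median on every array. In the wild-type channel of array 4 the median signal percentile was 93.6 for the amino acid list and 83.8 for the histidine list, against 80.7 to 84.3 and 49.5 to 63.4 on arrays 1 to 3. Their double mutant channel on array 4 was at 81.9 and 55.8, within 79.8 to 82.2 and 45.7 to 57.1 on arrays 1 to 3.

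The steps directly before and after the ADE genes gave no call. The 5 PRPP synthetase genes, PRS1 to PRS5, had 0 calls and were all above 0 on array 4, between 0.01 and 0.16. The 7 genes from IMP to the guanine and adenine nucleotides had 0 calls and a median of -0.00152, and 0 of 12 purine salvage genes and 0 of 9 pyrimidine synthesis genes were called. Of all genes, 4.97% were called lower and 3.25% higher. Without array 4 the PRPP genes and the genes from IMP onwards still had 0 calls. In that fit 1 of 12 salvage genes and 1 of 9 pyrimidine genes were called lower, as were 6.9% of all genes. The purine transport list had 1 of 4 called: FCY2, the purine and cytosine permease, had -0.14, -0.33, -0.15 and -0.77, and fell by 0.35 (limma adjusted p = 0.042). It was at -0.23 without array 4 (limma adjusted p = 0.0369), and the call was lost without array 1, 2 or 3 against wild type and without array 2, 3 or 4 against the triple mutant. Against the triple mutant, 0 genes of any of these lists were called with all 8 arrays. Without array 4 of the other comparison, 3 of 14 one-carbon, 2 of 12 salvage, 1 of 4 transport and 2 of 9 pyrimidine genes were called higher. Of the amino acid list 3 of 30 were called higher and 1 lower, and the histidine, PRPP and IMP lists had 0 calls. Of all genes, 5.41% were called higher and 1.9% lower in that fit.

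**Figure D5:**
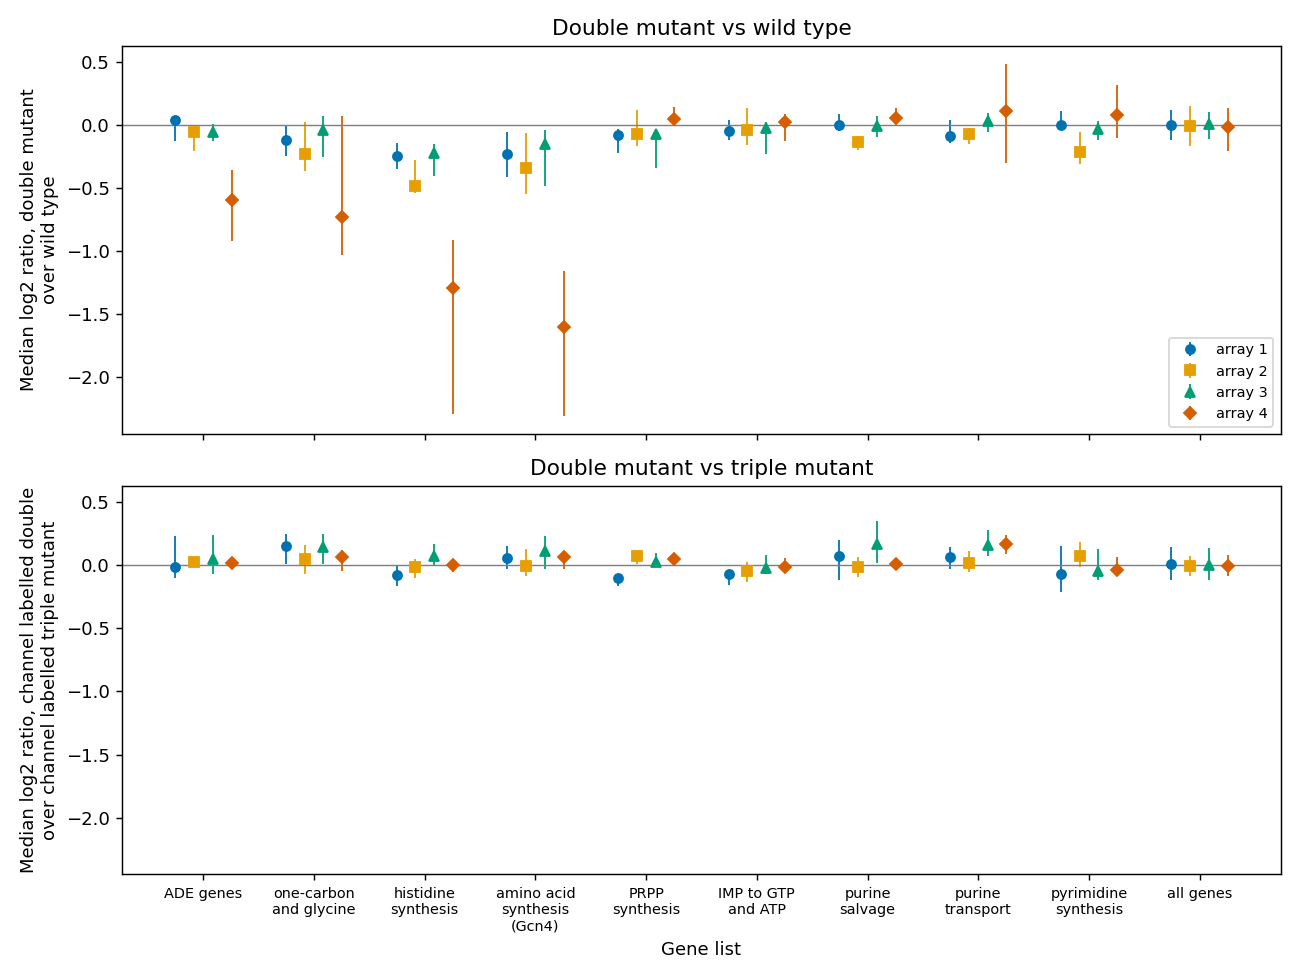
Median log2 ratio of the ADE genes, of each neighbouring gene list and of all genes on each array, with bars from the lower to the upper quartile of the list's genes. On array 4 against wild type the ADE, one-carbon, histidine and amino acid lists are at -0.59, -0.73, -1.29 and -1.60, and the PRPP list is at 0.05.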

How the data were processed

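Total RNA was compared on 8 Agilent arrays of 1 slide and 1 scan time. Per the file headers, the authors extracted the slide with Feature Extraction 10.7.3.1, and the deposited files hold for each spot and channel mean, background and processed intensities and flags of 0 or 1 (other values). The authors' normalized log ratios are in a further deposited table, not used here, since its 8 columns match no array's label.

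Mean intensities were background-corrected by normexp (offset 50) and each array was scaled by loess, using R 4.3.3 and limma 3.58.1. Outlier spots were left out, and control spots did not enter the loess curve. A probe well above background in at least 4 of 16 channel measurements was kept, and the brighter probe represents a gene. Systematic names were paired with symbols through a RefSeq table. One limma model over 8 arrays had a coefficient per comparison and a common dye term, with 5 residual degrees of freedom. Intervals are of 95%, and the number of arrays limits the precision. The procedure was tested on simulated data. Their noise was independent between genes and, for each gene, of equal spread on all arrays, so none stood apart as array 4 did.

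The members and lists were chosen with earlier results of these data known. Named are the 10 ADE genes, BAS1, PHO2 and GCN4, the 3 disrupted genes, up to 3 called genes per list and direction by size, and the 5 genes closest to the mean of the ADE genes; a gene that this rule takes is not reported here. Alternatives were other background corrections, scalings, filters, probe rules, dye terms, blocks and weights, and each array left out.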

Additional observations from a re-analysis of the deposited data

Results flagged for a closer look

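ADE17 on array 4 of the double mutant against wild type lay far from the other arrays of its group, with a log2 ratio of -1.54, against 0.04, -0.01 and -0.06 on arrays 1 to 3. Its gap to the nearest array took up 0.939 of the whole range of the 4 values. It was the only outlier among 20 groups tested, the 10 ADE genes in 2 comparisons, and chance gives about 1 in 20.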

How the results depend on the processing

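The ADE calls are few and depend on the fit. Against wild type the count was 1 and became 0 with the processed signals, without background correction, with median centring, with the dimmer probe, without a dye term, with the 4 arrays alone, with dye-swap pairs averaged and with array quality weights. It was 0 to 1 when single arrays were left out, where without array 2 against wild type ADE4 was called in place of ADE5,7 (-0.42, limma adjusted p = 0.0399). With a dye term per comparison, chosen after seeing the data, it was 2. ADE5,7 was called in 6 of 23 alternatives, with adjusted p from 0.0396 to 0.412, and its ratio lay between -0.23 and -0.17 in all 23. Whether same-numbered arrays of the 2 comparisons are paired is not stated. Their correlations were -0.175, 0.202, 0.0692 and -0.0611, and those of the other pairs ran from -0.334 to 0.299, so the correlations do not decide it. With the replicate block 0 ADE genes were called in either comparison.

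Against the triple mutant the count was 0, and 3 with the 4 arrays alone (ADE8, ADE6 and ADE17), 4 with array quality weights (these and ADE13), and 0 to 1 without single arrays. The median log2 ratio of the ADE genes in double mutant vs triple mutant, 0.02, was 0.0559 with the processed signals and ran from -0.0215 to 0.10 without single arrays; against wild type it ran from -0.25 to -0.08 over all alternatives. The cause was not tested. Over all genes the counts ran from 25 to 825 against wild type, where 531 were called, and from 21 to 2055 against the triple mutant, where 103 were called. Against wild type, HIS1 and ARG1 were called in 22 of 23 alternatives, GCN4 and ARG3 in 19, GCV2 in 17 and SHM2 in 16. GCV3 was called in 13 of 23, HIS7 in 11 and FCY2 in 8. With the 4 arrays of that comparison alone, none of these genes was called.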

Other observations

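The genes whose log2 ratios lay closest to the mean of the 10 ADE genes over the 8 arrays were YER039C-A, YGL024W, CYB2, CIT3 and CEM1, with root mean square differences between 0.0471 and 0.0773 among 1334 genes that varied at least as much as that mean. CYB2 encodes the lactate dehydrogenase of the mitochondrial intermembrane space, CIT3 a mitochondrial citrate synthase and CEM1 an enzyme of mitochondrial fatty acid synthesis. CYB2 had -0.02, -0.06, -0.01 and -0.68 on arrays 1 to 4 of the double mutant against wild type, where the ADE mean was 0.01, -0.11, -0.08 and -0.62. The range asked of a gene came from array 4, where the ADE mean was lowest, so the genes closest to it had to be low there. Without array 4 the range asked was smaller. The 5 closest of 5853 genes were then ALR2, YLR169W, YJL202C, YPT31 and YER039C-A, and only YER039C-A was on both lists. The change of genes follows in part from this rule.

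Within the purine genes the members nearest to their own mean were ADE6, ADE1 and ADE5,7, with root mean square differences of 0.136, 0.141 and 0.147, and the farthest were ADE17 at 0.365 and ADE16 at 0.301, the isozyme pair.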
